A study of Danio rerio with 20 samples.

Results

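The genes described here encode the pumps that clear calcium from the cytosol of animal cells, in whole zebrafish larvae exposed to organic pollutants. The list held 10 symbols, 4 for pumps of the sarcoplasmic and endoplasmic reticulum (atp2a1, atp2a1l, atp2a2a and atp2a2b) and 6 for pumps of the plasma membrane (atp2b1a, atp2b1b, atp2b2, atp2b3a, atp2b3b and atp2b4). A row of the deposited table belonged to a symbol where its name, less the trailing transcript number, was that symbol, and each symbol was read from its row of highest mean over the 20 libraries. This gave 8 of the 10 symbols a row, among 22851 symbols in the whole table, with 3 for the reticulum and 5 for the plasma membrane. No row carried the name atp2a2b or atp2b4. The 8 symbols had 39 transcript rows between them, and all 8 passed the filter on low values.

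Calcium pumps use ATP to move calcium against a steep gradient. Pumps of the reticulum refill the internal store, and in muscle this ends each contraction. Pumps of the plasma membrane push calcium out of the cell, are stimulated by calmodulin, and in mammals are prominent in neurons and sensory hair cells.

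Larvae of the AB wild type strain were exposed from 6 to 96 hours post fertilization (hpf), and RNA was sequenced from whole larvae at 96 hpf. The groups were POP10 and POP70, a mixture of persistent organic pollutants modelled on human blood levels at 10 and 70 times those levels; PFOS10 and PFOS70, perfluorooctanesulfonic acid, a fluorinated surfactant, given by itself at its amounts in those mixtures; and Control, larvae given the solvent at 0.1% dimethyl sulfoxide. The solvent level is labelled for Control alone. Each group had 4 libraries, each from a pool of 10 larvae, and no label gives the clutch of a pool. The p-values therefore cover only pool to pool spread, part of which may be technical.

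The deposited values are log2 RPM, with RPM standing for reads scaled to a total of 1000000 per library, not divided by transcript length, so levels are compared between groups and not between genes. The totals to which reads were scaled were 8572287 to 11243573 per library, and pump rows held from 264 to 114887 reads per library for the 10 gene loci described below. Counting error is expected to be small beside most of the spread between pools, but less so in tight groups such as atp2b1a in POP10 (SD of 0.0489). Intervals cover the spread between libraries, and neither the strand setting nor the handling of reads shared by near-identical copies is given in the sources used here. The PFOS10 libraries stood apart from the rest on the first principal component of all genes (39.6% of the variance), at 49.4 to 61.5, against -45 to 21.9 in the other 16. Marker lists for fast muscle, slow muscle, heart, neurons, hair cells, ionocytes and photoreceptors were all detected. The heart genes nppb and tnnc1a had 0 reads in 4 libraries and in 1 library, and the neuronal gene syt1b and the hair cell gene lhfpl5a had 0 reads in 1 library each. Whole-larva values cannot tell fewer cells of a type from less RNA per cell.

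The location of each row was read from the coordinates in the file (GRCz11) and from the genes around it, within 1000000 bases, set against the neighbours of each pump gene in RefSeq (GRCz12tu, used for gene order alone). For 6 symbols the neighbours were those of the gene the row is named for. The row read for atp2a1 lies at chr3:26144782-26157063 (plus strand), with 45 of its 47 named neighbours shared. Those for atp2a1l (chr12:13244184-13261745, plus), atp2b1a (chr4:16076719-16124419, minus), atp2b1b (chr25:19609713-19655852, minus), atp2b3a (chr8:14003232-14052349, minus) and atp2b3b (chr23:19834215-19953089, minus) matched likewise.

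Both remaining symbols covered a pair of loci. Rows named atp2a2a lie at chr21:17051496-17108649 (plus), where 20 of 21 neighbours were those of RefSeq atp2a2b, and at chr8:11687254-11744994 (plus), where 24 of 26 were those of RefSeq atp2a2a. The rule took the chromosome 21 row, atp2a2a-203, which is listed with the feature name and coordinates of atp2a2a-202, so its own span may differ. Rows named atp2b2 lie at chr11:22920587-23080970 (minus), where 21 of 22 neighbours were those of RefSeq atp2b4, and at chr11:1148701-1291012 (minus), where 49 of 52 were those of RefSeq atp2b2. The rule took the first of these, atp2b2-202. By this match, the loci of atp2a2b and atp2b4 are listed in the file under a paralog's name. The second loci, read from atp2a2a-204 and atp2b2-208, were added as rows after the data were seen, which gave 10 loci in all. They are named here by transcript to keep the 4 apart.

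In PFOS10 against Control, 2 of the 4 reticulum loci were lower past the threshold, and none of the 6 plasma membrane loci passed. Of all genes, 8.25% passed there, 6.97% as lower. In PFOS10 larvae atp2a1l was 1.46-fold lower and atp2a2a-204 was 1.57-fold lower than in Control. Both calls were lost in some of the fits that left out a library, and that of atp2a1l also at equal medians. The row of the later part of atp2a1l alone, atp2a1l-202, averaged 9.005 log2 RPM in Control and 8.83 in PFOS10. All 4 reticulum loci had negative differences in this comparison, beside positive ones at all 6 plasma membrane loci, though atp2b1a turned to -0.02 with quantile normalization. These signs are those of the rows read. Over all 22 transcript rows of the plasma membrane pumps the differences ran from -0.30 to 0.24. Between the PFOS levels, atp2a1, atp2a1l and atp2a2a-204 were higher in PFOS70 by 1.45-fold, 1.83-fold and 2.37-fold. The row read for atp2b1b, atp2b1b-201, was 1.295-fold lower, while its other rows had nearly equal means in PFOS10 and PFOS70. For atp2a1l, the row of the later part of the gene alone averaged 8.83 log2 RPM in PFOS10 and 9.04 in PFOS70. In that comparison 34.4% of all genes passed, 23.6% as higher and 10.8% as lower. The mixture gave no pump past the threshold against Control at either level, where 0% of all genes passed in POP10 and 0.0156% in POP70. Between POP10 and PFOS10, 31.4% of all genes passed, 11.6% as lower in POP10 and 19.8% as higher. POP10 larvae had less of the pumps atp2b2-202, atp2b2-208, atp2b3a and atp2b3b than PFOS10 larvae, by 1.22-fold to 1.41-fold, and 1.64-fold more atp2a2a-204. Of these 5 calls, those of atp2b2-202, atp2b2-208 and atp2b3b were lost without PFOS10 replicate 2. The other rows of the atp2b2-202 locus had closer means in POP10 and PFOS10 than the row read.

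**Figure D1:**
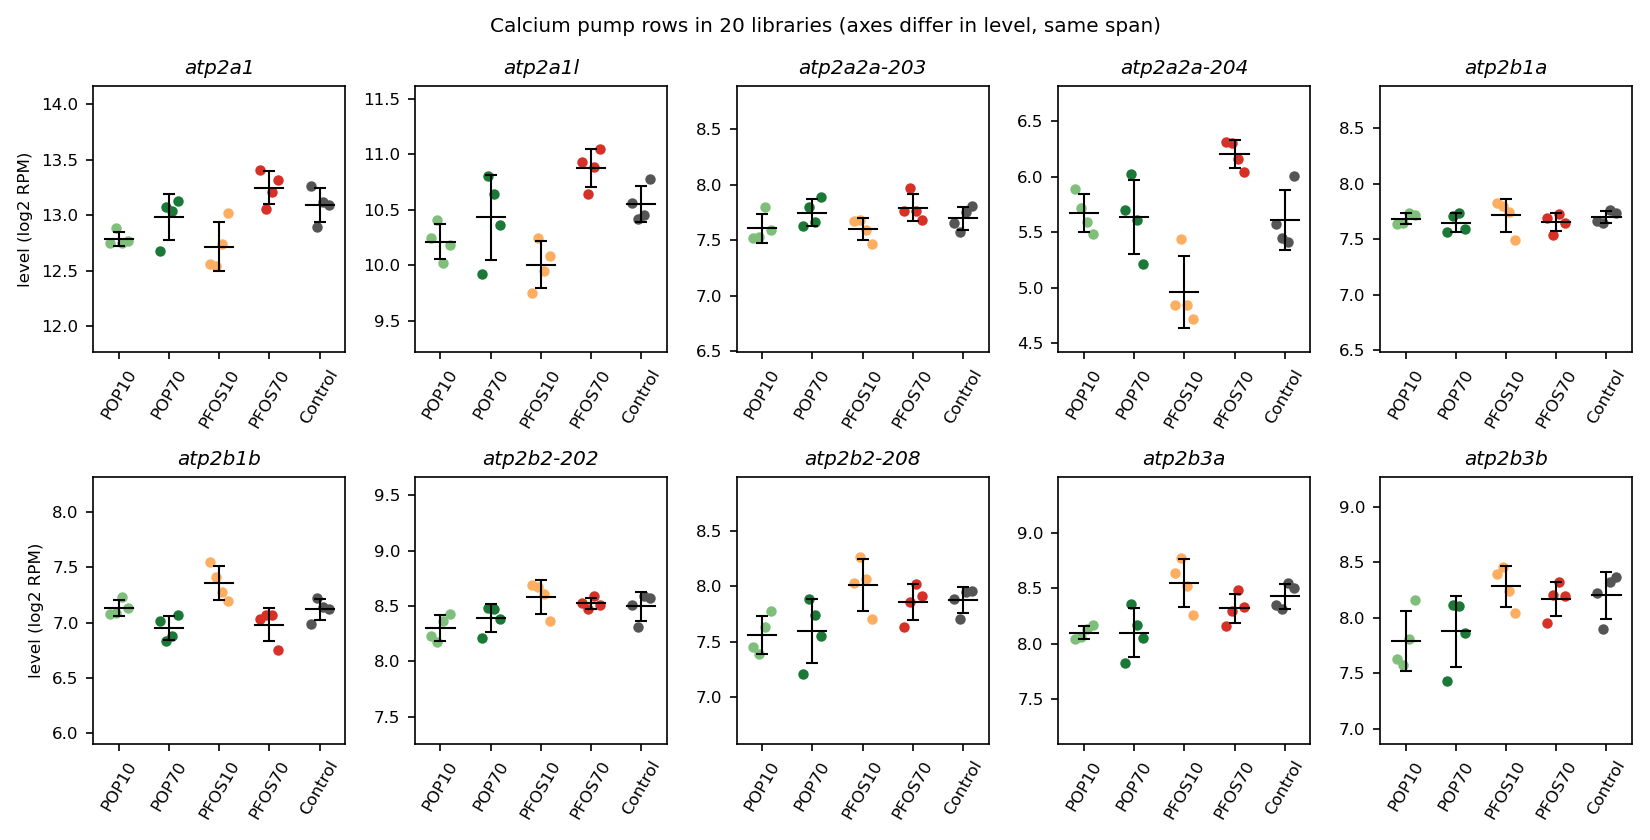
Levels of the 10 calcium pump loci in log2 RPM (vertical axis, each panel with its own level and the same span) in 4 libraries a group (points), with the mean and SD (bars). In the panel of atp2a2a-204 the PFOS10 points lie between 4.72 and 5.44 and the PFOS70 points between 6.05 and 6.32, while the points of atp2b1a stay within 7.49 to 7.82 over all groups.

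The gene atp2a1 encodes the pump of fast skeletal muscle, and zebrafish that lack it (accordion mutants) relax their muscle poorly. Its levels were 12.75, 12.89, 12.75 and 12.77 log2 RPM in POP10 and 12.68, 13.08, 13.04 and 13.13 in POP70. They were 12.56, 12.54, 12.74 and 13.02 in PFOS10 and 13.41, 13.06, 13.21 and 13.32 in PFOS70, against 13.26, 12.89, 13.12 and 13.09 in Control. Of the PFOS10 libraries 3 lay below every Control library, and replicate 4 lay inside the range of Control. All 4 POP10 libraries lay below Control, though the highest, at 12.8854, was close to the lowest Control library, at 12.8926. The order of the means was PFOS70, Control, POP70, POP10, PFOS10, and each neighbouring pair in that order overlapped.

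The paralog atp2a1l had 10.24, 10.41, 10.02 and 10.18 log2 RPM in POP10 and 9.92, 10.80, 10.64 and 10.36 in POP70. It had 9.75, 10.24, 9.94 and 10.09 in PFOS10 and 10.93, 10.64, 10.88 and 11.04 in PFOS70, against 10.56, 10.42, 10.45 and 10.78 in Control. Both POP10 and PFOS10 lay wholly below Control, and POP70 spread widest, with an SD of 0.385. The order of the group means was that of atp2a1, with every neighbouring pair overlapping.

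The reticulum pump encoded by atp2a2 serves heart, slow muscle and many other cells in mammals. At chromosome 8, atp2a2a-204 had 5.89, 5.72, 5.59 and 5.48 log2 RPM in POP10 and 5.70, 6.03, 5.61 and 5.22 in POP70. It had 4.84, 5.44, 4.84 and 4.72 in PFOS10 and 6.32, 6.30, 6.16 and 6.05 in PFOS70, against 5.57, 5.45, 5.42 and 6.01 in Control. PFOS70 stood above every other library of the study, and PFOS10 overlapped Control through replicate 2 alone. At chromosome 21, atp2a2a-203 averaged 7.61 ± 0.131 log2 RPM in POP10, 7.75 ± 0.120 in POP70, 7.60 ± 0.101 in PFOS10, 7.79 ± 0.125 in PFOS70 and 7.70 ± 0.106 in Control (SD, n = 4 each). Its 5 groups overlapped in every neighbouring pair, over a range of means of 0.192 on the log2 scale, against 1.246 for atp2a2a-204.

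Among the plasma membrane pumps, atp2b1 is the widely expressed form in mammals. Of its zebrafish pair, atp2b1a averaged 7.68 ± 0.0489 log2 RPM in POP10, 7.65 ± 0.0849 in POP70, 7.71 ± 0.151 in PFOS10, 7.65 ± 0.0818 in PFOS70 and 7.70 ± 0.0551 in Control (SD, n = 4 each). This was the narrowest range of group means of the 10 loci, at 0.064 on the log2 scale. Its partner atp2b1b had 7.08, 7.09, 7.23 and 7.13 in POP10 and 7.01, 6.84, 6.88 and 7.07 in POP70. It had 7.55, 7.41, 7.27 and 7.19 in PFOS10 and 7.03, 7.07, 7.07 and 6.76 in PFOS70, against 6.99, 7.22, 7.14 and 7.12 in Control. PFOS10 was the highest group of atp2b1b and lay wholly above PFOS70 and POP70, while it shared part of its range with Control and POP10.

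In mammals atp2b3 is found mainly in brain, and atp2b2 in neurons and in the hair bundles of the inner ear. Levels of atp2b3a were 8.04, 8.06, 8.13 and 8.16 log2 RPM in POP10 and 7.82, 8.36, 8.17 and 8.05 in POP70. They were 8.63, 8.77, 8.52 and 8.26 in PFOS10 and 8.16, 8.29, 8.49 and 8.33 in PFOS70, against 8.35, 8.31, 8.55 and 8.50 in Control. POP10 was tightly grouped, with an SD of 0.0586, and lay wholly below both PFOS10 and Control. For atp2b3b the levels were 7.63, 7.57, 7.81 and 8.16 in POP10 and 7.43, 8.12, 8.10 and 7.86 in POP70. They were 8.39, 8.46, 8.24 and 8.04 in PFOS10 and 7.96, 8.20, 8.32 and 8.19 in PFOS70, against 8.22, 7.90, 8.32 and 8.37 in Control. The POP10 and POP70 means of atp2b3b were the lowest, and all 5 groups overlapped in the order of their means.

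Both loci under the name atp2b2 kept the same order as atp2b3b from PFOS10 at the top to POP10 at the bottom, except that Control and PFOS70 changed places for atp2b2-202. Means of atp2b2-202 were 8.30 ± 0.118 in POP10, 8.39 ± 0.125 in POP70, 8.58 ± 0.152 in PFOS10, 8.52 ± 0.0475 in PFOS70 and 8.50 ± 0.128 in Control (log2 RPM, SD, n = 4 each). Means of atp2b2-208 were 7.56 ± 0.176 in POP10, 7.60 ± 0.291 in POP70, 8.02 ± 0.234 in PFOS10, 7.86 ± 0.164 in PFOS70 and 7.88 ± 0.116 in Control (SD, n = 4 each). Neighbouring groups overlapped throughout for both.

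The comparison of PFOS10 with Control asked what the lower PFOS level did on its own. In limma, a linear model fitted across all genes, with Benjamini-Hochberg adjustment over all genes tested, 1 of the 8 symbols passed an adjusted p of 0.05, against 8.25% of all genes (6.97% lower and 1.28% higher). This was atp2a1l, at a log2 difference of -0.55 ± 0.15 (SE, adjusted p = 0.0304) and with every PFOS10 library below every Control library, as in 9.11% of all genes. With the second loci as rows, atp2a2a-204 also passed, at -0.65 ± 0.16 (adjusted p = 0.0222). The muscle pump atp2a1 was at -0.38 ± 0.12 and narrowly missed the threshold (limma adjusted p = 0.0519), and atp2b1b was at 0.24 ± 0.09 (limma adjusted p = 0.0863). The median difference was -0.46 over the 4 reticulum loci and 0.10 over the 6 plasma membrane loci, beside -0.03 over all 19289 genes tested.

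The PFOS10 calls changed with single libraries and with the scaling. Without any 1 of Control replicates 1, 2 and 4 or PFOS10 replicates 1 and 3, atp2a1l lost its call (limma adjusted p = 0.0504 to 0.115), and atp2a2a-204 lost its call without Control replicate 4 or PFOS10 replicate 1 or 3 (0.0605 to 0.101). Without PFOS10 replicate 4, atp2a1 and atp2b1b passed (limma adjusted p = 0.00941 and 0.0342), and atp2a1 also passed without POP70 replicate 1 (limma adjusted p = 0.0315). With the libraries shifted to equal medians, atp2a1l was at -0.46 (limma adjusted p = 0.0677), atp2b1b passed as higher at 0.33 (limma adjusted p = 0.0157), and atp2a2a-204 kept its call at -0.56 (limma adjusted p = 0.0260). As deposited, the mean library median lay at -0.088 in PFOS10 and 0.053 in PFOS70 relative to Control, the offsets that this shift took out, and at equal medians 1132 of 2219 called genes were higher in PFOS10, against 247 of 1591 as scaled in the file. Quantile normalization gave 253 higher of 786 called.

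In PFOS70 against Control no pump passed, as no gene of the 19289 tested did (0%), while 8.56% of genes were higher at an unadjusted p below 0.05. All 4 reticulum loci had positive differences, and 5 of the 6 plasma membrane loci negative ones (all 6 at equal medians, where atp2b2-202 turned to -0.03). The highest was atp2a2a-204, at 0.60 ± 0.16 (limma, unadjusted p = 0.00164, adjusted p = 0.233), with every PFOS70 library above every Control library. The next was atp2a1l, at 0.32 ± 0.15 (limma, unadjusted p = 0.0422, adjusted p = 0.408), with overlapping groups. Non-overlap with PFOS70 higher was seen in 5.13% of all genes. The remaining 8 loci lay between -0.14 and 0.16.

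**Figure D2:**
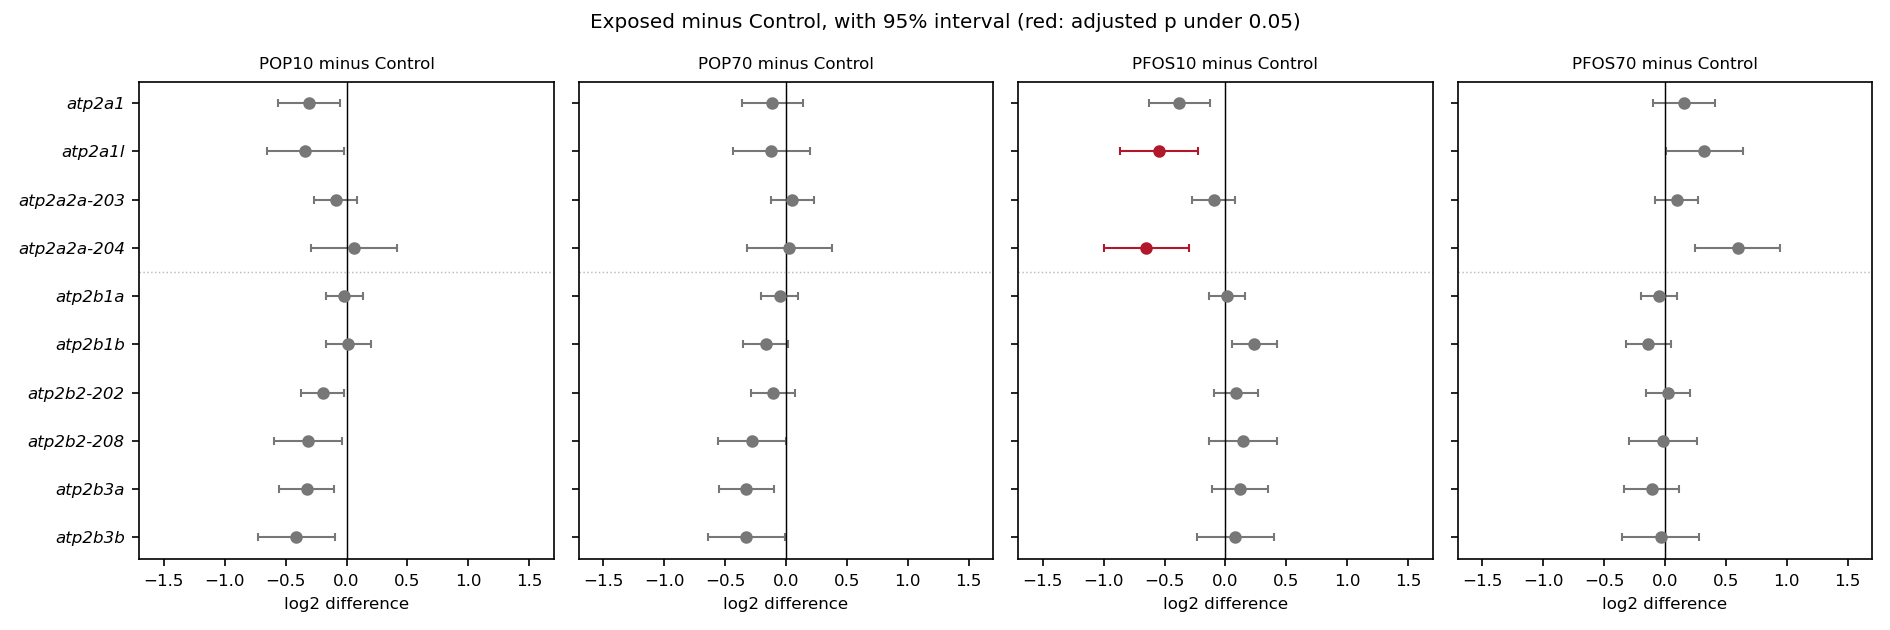
Log2 difference of each exposed group from Control (horizontal axis) with its 95% interval for the 10 loci, reticulum pumps above the dotted line and plasma membrane pumps below it. The red points, past an adjusted p of 0.05 in limma, are atp2a1l at -0.55 and atp2a2a-204 at -0.65 in PFOS10.

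In POP10 against Control no gene at all passed the threshold (0%), and 5.19% of genes were lower at an unadjusted p below 0.05. Among the pumps, 6 of the 10 loci were. These were atp2a1 at -0.31 ± 0.12, atp2a1l at -0.34 ± 0.15, atp2b2-202 at -0.20 ± 0.08, atp2b2-208 at -0.31 ± 0.13, atp2b3a at -0.33 ± 0.11 and atp2b3b at -0.41 ± 0.15 (limma, log2 difference ± SE, adjusted p = 0.51 for each). POP10 lay wholly below Control for atp2a1, atp2a1l and atp2b3a, against 3.1% of all genes. Over the 10 loci 8 differences were negative (7 with quantile normalization, where atp2b1a turned to 0.04), with a median of -0.25 beside 0.01 over all genes.

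POP70 against Control gave 0 pumps past the threshold, beside 3 of all genes (0.0156%). All 6 plasma membrane loci had negative differences, from -0.33 to -0.05. The 3 with an unadjusted p below 0.05, where 6.21% of all genes were lower, were atp2b3a at -0.33 ± 0.11 (limma adjusted p = 0.391), atp2b3b at -0.33 ± 0.15 (limma adjusted p = 0.483) and atp2b2-208 at -0.28 ± 0.13 (limma adjusted p = 0.486). No pump had POP70 wholly outside the range of Control, against 5.57% of all genes. The reticulum loci lay between -0.12 and 0.05. For POP10, POP70 and PFOS70 against Control, limma voom on recovered reads and a fit without the PFOS10 libraries also gave 0 pumps.

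The 4 comparisons above share the Control libraries, so their differences are not independent of one another. Comparing exposed groups directly leaves Control out of the difference, though the spread is still estimated over all 20 libraries. The comparisons that hold PFOS10 share its libraries in turn and are not independent either. All pump calls came from such comparisons, the difference between the dose effects included. PFOS70 against PFOS10 gave 3 of the 8 symbols past the threshold, against 34.4% of all genes, 2 of them higher (23.6% of all genes) and 1 lower (10.8%). The log2 differences were 0.53 ± 0.12 for atp2a1 (limma adjusted p = 0.00182), 0.87 ± 0.15 for atp2a1l (limma adjusted p = 0.000261) and -0.37 ± 0.09 for atp2b1b (limma adjusted p = 0.00240). With the second loci, atp2a2a-204 was 1.25 ± 0.16 higher in PFOS70 (limma adjusted p = 4.597e-05). PFOS70 and PFOS10 did not overlap for these 4 loci, against 29.3% of all genes. Those calls held without any single library. That of atp2b1b is for the row read, atp2b1b-201, and its other rows, all of lower level, did not show the drop. Their means in PFOS10 and PFOS70 were 4.63 and 4.69 log2 RPM for atp2b1b-203 and 3.22 and 3.16 for atp2b1b-204. For atp2b1b-202 they were 3.24 and 3.22, and for atp2b1b-205 they were 2.77 and 2.71. In atp2a1l, the row of the later part of the gene alone, atp2a1l-202, averaged 8.83 in PFOS10 and 9.04 in PFOS70. The row read, atp2a1l-201, averaged 10.01 and 10.87. Short of the threshold, atp2a2a-203 was at 0.19 ± 0.08 (limma adjusted p = 0.0781) and atp2b3a at -0.23 ± 0.11 (limma adjusted p = 0.103). The first passed with quantile normalization and for the lowest-numbered transcript (limma adjusted p = 0.0245 and 0.0460), and atp2b3a passed at equal medians, with array weights and without PFOS10 replicate 4 (limma adjusted p = 0.00941, 0.0382 and 0.0180). At equal medians the differences were 0.39 for atp2a1, 0.73 for atp2a1l, 1.105 for atp2a2a-204 and -0.51 for atp2b1b, all still past the threshold. That scaling left 3466 of 8399 called genes higher in PFOS70, against 4557 of 6634 as scaled in the file, and quantile normalization left 3073 of 6937.

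**Figure D3:**
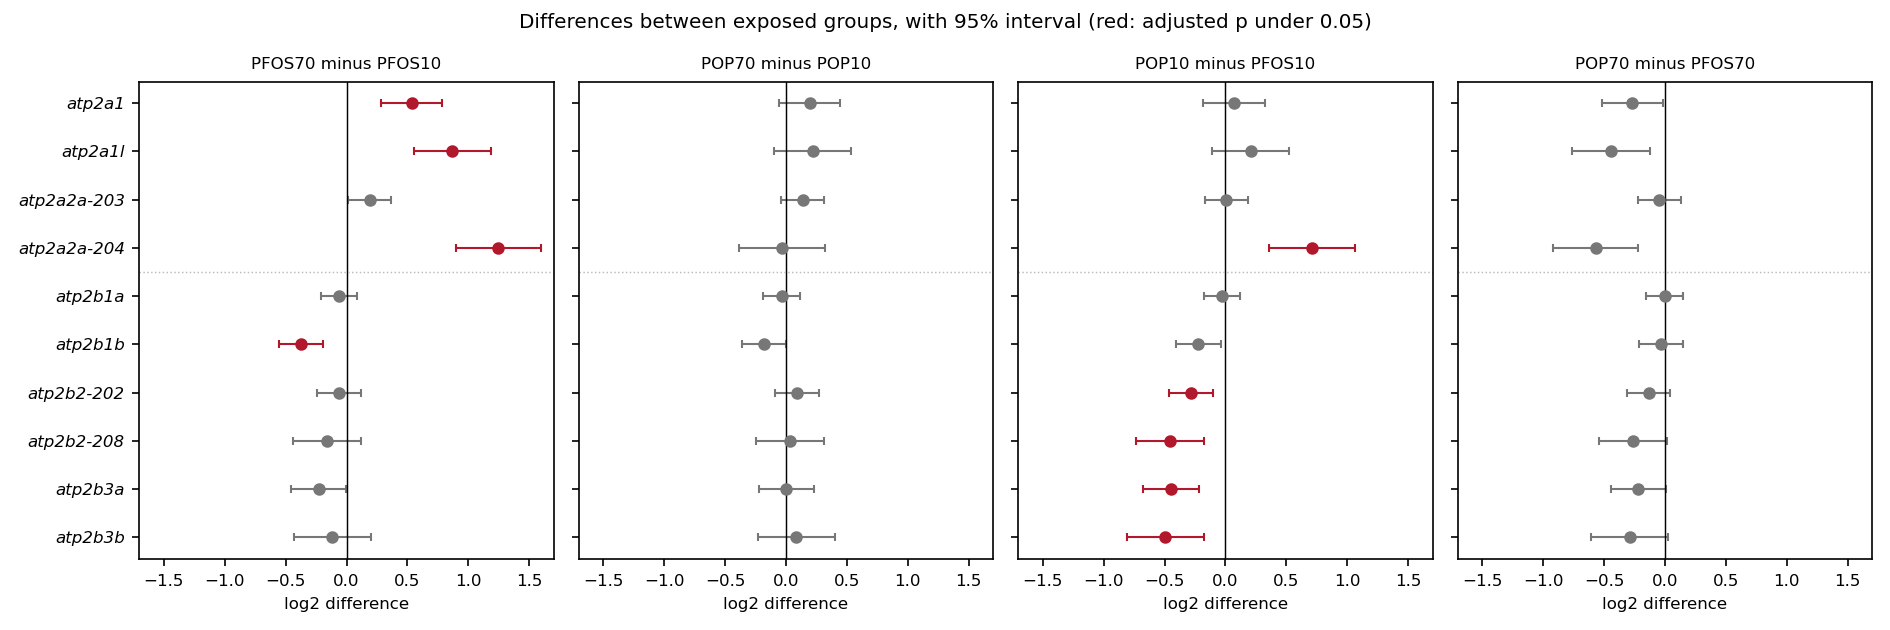
Log2 difference between exposed groups (horizontal axis) with its 95% interval for the 10 loci, reticulum pumps above the dotted line and plasma membrane pumps below it, red where the adjusted p in limma is below 0.05. PFOS70 is above PFOS10 for 3 reticulum loci, at 0.53 to 1.25, and below it for atp2b1b, at -0.37, while POP10 is below PFOS10 for 4 plasma membrane loci, at -0.49 to -0.28, and above it for atp2a2a-204, at 0.71.

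POP10 against PFOS10 asked what the rest of the mixture added at the lower PFOS level. In this comparison 31.4% of all genes passed, 11.6% lower and 19.8% higher in POP10, and 3 of the 8 symbols did, all lower in POP10. Genes higher in POP10 were 3812 of 6051 called, but 3019 of 7218 at equal medians and 2690 of 5604 with quantile normalization. The 3 symbols that passed as lower in POP10 were atp2b2-202 at -0.28 ± 0.08 (limma adjusted p = 0.0155), atp2b3a at -0.45 ± 0.11 (limma adjusted p = 0.00437) and atp2b3b at -0.49 ± 0.15 (limma adjusted p = 0.0164). The second locus atp2b2-208 was lower too, at -0.46 ± 0.13 (limma adjusted p = 0.0132), and atp2a2a-204 was higher in POP10, at 0.71 ± 0.16 (limma adjusted p = 0.00378). Full separation of the groups held for atp2b3a and atp2a2a-204, against 25.2% of all genes. The calls of atp2b3a and atp2a2a-204 held without any single library, while those of atp2b2-202, atp2b2-208 and atp2b3b were each lost without PFOS10 replicate 2, at limma adjusted p-values of 0.0502, 0.0534 and 0.0544. Those of atp2b2-202 and atp2b3b were also lost without POP10 replicate 1 or 2, and that of atp2b2-202 without PFOS10 replicate 1 (limma adjusted p = 0.0503 to 0.0609). For atp2b1b the difference was -0.22 ± 0.09 (limma adjusted p = 0.0526). Other rows of the atp2b2-202 locus differed less. Their means in POP10 and PFOS10 were 7.77 and 7.94 log2 RPM for atp2b2-206 and 6.25 and 6.35 for each of atp2b2-201, atp2b2-205 and atp2b2-207. They were 4.38 and 4.44 for atp2b2-204 and 4.60 and 4.55 for atp2b2-203.

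At the higher level, POP70 against PFOS70 gave no pump past the threshold, beside 0.181% of all genes, of which 19 of 35 were higher in POP70 (24 of 35 at equal medians, 38 of 49 with quantile normalization). All 10 loci had negative differences, though atp2a2a-203, atp2b1a and atp2b1b turned positive, at 0.05 or less, at equal medians and with quantile normalization. Those with an unadjusted p below 0.05, where 7.19% of all genes were lower, were atp2a1 at -0.27 ± 0.12 (limma adjusted p = 0.419), atp2a1l at -0.44 ± 0.15 (limma adjusted p = 0.303) and atp2a2a-204 at -0.57 ± 0.16 (limma adjusted p = 0.229). For atp2a2a-204 every POP70 library lay below every PFOS70 library, as in 3.58% of all genes.

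POP70 against POP10 gave no pump and no gene past the threshold (0%), with 1.89% of genes lower at an unadjusted p below 0.05. The pump with the smallest p was atp2b1b, at -0.18 ± 0.09 (limma, unadjusted p = 0.0452, adjusted p = 0.9999), with POP70 wholly below POP10, as in 1.18% of all genes. The other 9 loci lay between -0.04 and 0.22.

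Whether the step in level differed between the mixture and PFOS was tested as the POP70 minus POP10 difference less the PFOS70 minus PFOS10 difference. It passed for 15.9% of all genes (13.2% negative, with 509 of 3060 positive as scaled in the file, 2318 of 4303 at equal medians and 1006 of 2407 with quantile normalization) and for 1 of the 8 symbols, atp2a1l, at -0.65 ± 0.21 (limma adjusted p = 0.0406). With the second loci it also passed for atp2a2a-204, at -1.28 ± 0.23 (limma adjusted p = 0.00273). For atp2a1l this call was lost without any 1 of POP10 replicates 1 and 2, POP70 replicates 1 and 4, PFOS10 replicates 1 and 3 and PFOS70 replicates 1, 3 and 4 (limma adjusted p = 0.0556 to 0.0861), and at equal medians (limma adjusted p = 0.119). The call of atp2a2a-204 held in all 20 fits that left out a library. That of atp2a1l is for the row read, atp2a1l-201. In atp2a1l-202, of the later part of the gene alone, the means rose from 8.67 log2 RPM in POP10 to 8.86 in POP70. Between PFOS10 and PFOS70 they rose from 8.83 to 9.04.

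Rows of 1 gene overlap in the genome, and reads in a shared stretch appear in more than 1 row. The rows atp2a2a-202 and atp2a2a-203 hold 2169 and 2197 reads in Control replicate 1. Both are listed with the coordinates of atp2a2a-202, though the unequal reads show that the rows are not identical. The 39 rows were fitted among 41336 transcript rows. In PFOS10 against Control 11 of the 39 passed, all lower, against 7.75% of all transcript rows (6.78% lower), and none of the 22 plasma membrane rows was among them. The lowest were the 5 rows of atp2a1 that end first, at 26145119 to 26151560, where the other 3 end at 26154894 or later. They are atp2a1-203, atp2a1-204, atp2a1-205, atp2a1-206 and atp2a1-207. Their log2 differences ran from -1.09 to -0.89 (limma adjusted p = 6.706e-05 to 0.000378), and PFOS10 lay wholly below Control in all 5, as in 9.07% of all transcript rows. The 3 later-ending rows of atp2a1 ran from -0.41 to -0.35, with 2 past the threshold.

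For atp2a1-205 the levels were 8.59, 8.46, 8.58 and 8.94 log2 RPM in PFOS10 and 10.34, 9.99, 10.28 and 10.20 in PFOS70, against 9.87, 9.50, 9.74 and 9.63 in Control. The 3 groups did not overlap, where the whole-gene row atp2a1-201 overlapped between PFOS10 and Control. In PFOS70 against Control the 5 earlier-ending rows were at 0.42 to 0.52, none past the threshold (limma adjusted p = 0.187 to 0.239), as in 0% of all transcript rows, and the 3 later-ending rows at 0.14 to 0.17. In POP10 against Control the earlier-ending rows were at -0.31 to -0.28 and the later-ending ones at -0.33 to -0.31, again with none and 0% of all transcript rows past the threshold. In POP10 against PFOS10 all 5 earlier-ending rows passed as higher in POP10, at 0.57 to 0.80 (limma adjusted p = 0.000225 to 0.00134), against 18.1% of all transcript rows. The 3 later-ending rows were at 0.04 to 0.08 there, with none past the threshold.

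In atp2a1l, the row atp2a1l-202 covers the later part of the gene alone. In PFOS10 against Control this row was at -0.18 ± 0.17 (limma adjusted p = 0.555), while atp2a1l-201 and atp2a1l-203, which span the gene, were at -0.55 and -0.56. The 3 rows of atp2a2a on chromosome 8 were at -0.74 to -0.65, with 2 past the threshold, and the 3 on chromosome 21 at -0.12 to -0.09, with none. Rows of a plasma membrane pump could differ too. In PFOS70 against PFOS10, 2 of the 22 plasma membrane rows passed, 1 of them as higher in PFOS70, against 31.4% of all transcript rows (22.4% higher). Means of atp2b2-203 were 4.85 log2 RPM in Control, 4.55 in PFOS10 and 5.11 in PFOS70, against 8.50, 8.58 and 8.52 for atp2b2-202.

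**Figure D4:**
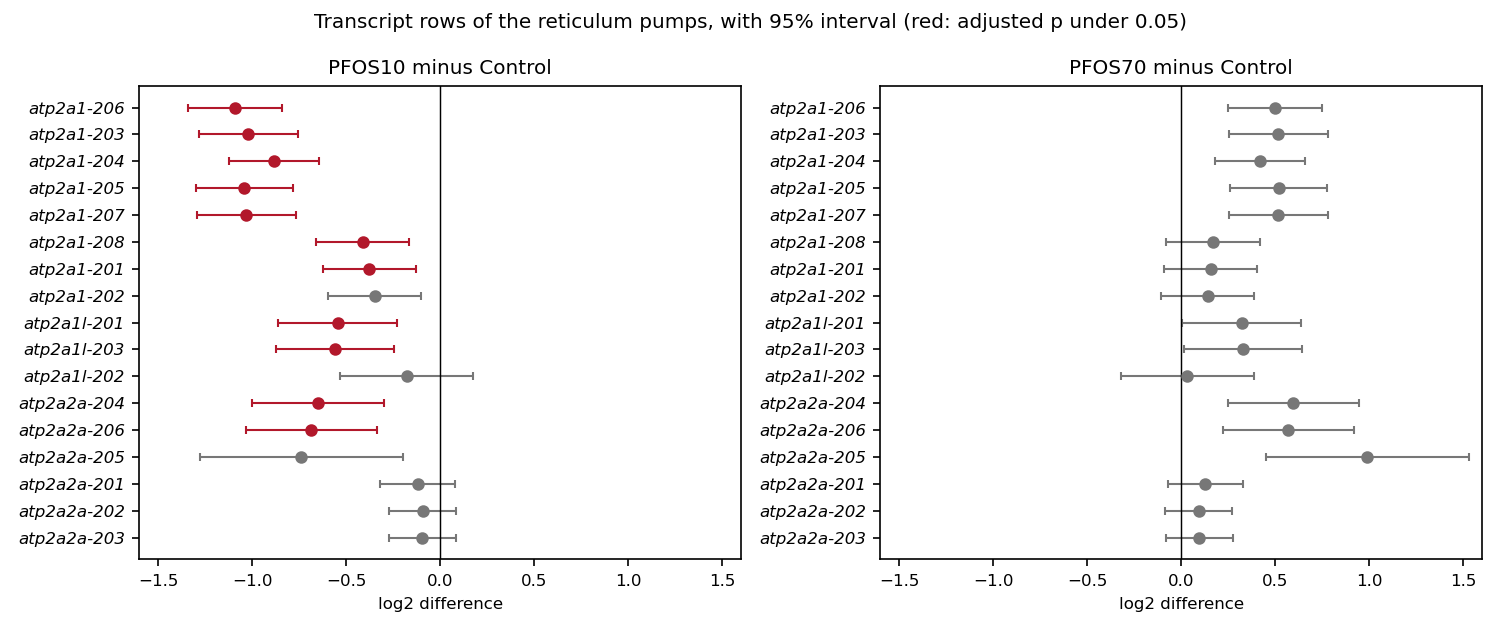
Log2 difference from Control (horizontal axis) with its 95% interval for the 17 transcript rows of the reticulum pumps in PFOS10 (left) and PFOS70 (right), red where the adjusted p in limma is below 0.05. The 5 earlier-ending rows of atp2a1 at the top lie between -1.09 and -0.89 in PFOS10 and between 0.42 and 0.52 in PFOS70.

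Because the earlier-ending rows of atp2a1 differed most, the balance of rows at the ends was measured in 153 genes with separate rows at each end and a mean of at least 5 log2 RPM, a description added after the data were seen. The median difference of the 5′ row less the 3′ row, relative to the Control mean, was 0.07, 0.05, 0.004 and -0.10 in POP10 and 0.07, 0.02, -0.10 and -0.15 in POP70. It was -0.11, -0.12, -0.15 and -0.19 in PFOS10 and 0.05, 0.09, 0.13 and -0.003 in PFOS70, against -0.06, -0.01, 0.01 and 0.08 in Control. PFOS10 lay wholly below Control, with a mean difference of -0.147 (two-sided exact permutation test, p = 0.0286, the smallest that 4 against 4 can give), and the balance was lower than in Control for 146 of the 153 genes (95.4%). PFOS70 overlapped Control (exact permutation p = 0.171), with a lower balance in 32 of 153 genes (20.9%). The balance was lower in 70 of 153 genes (45.8%) for POP10 and in 110 (71.9%) for POP70, at exact permutation p = 0.971 and 0.429, and POP70 replicate 4 lay inside the range of PFOS10. These permutation p-values are not adjusted, and rows that differed in PFOS10 had prompted the measure. In atp2a1 itself, atp2a1-205 less atp2a1-201 averaged -3.38 ± 0.152 in POP10, -3.36 ± 0.212 in POP70, -4.07 ± 0.0812 in PFOS10, -3.05 ± 0.0813 in PFOS70 and -3.41 ± 0.0382 in Control (log2, SD, n = 4 each). These rows were chosen for their difference, so no test is given. PFOS10 had the lowest mean of the balance and of all 4 reticulum loci. The replicate of lowest balance in PFOS10, replicate 4, had the highest atp2a1 of its group and the lowest atp2a2a-204 (4.72) and atp2a2a-203 (7.46). Its atp2a1l, at 10.09, lay inside the range of the group. POP70 replicate 4, at a balance of -0.15, had the highest atp2a1 of its group, at 13.13, and the lowest atp2a2a-204, at 5.22. The part of the balance in the pump results was not tested.

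**Figure D5:**
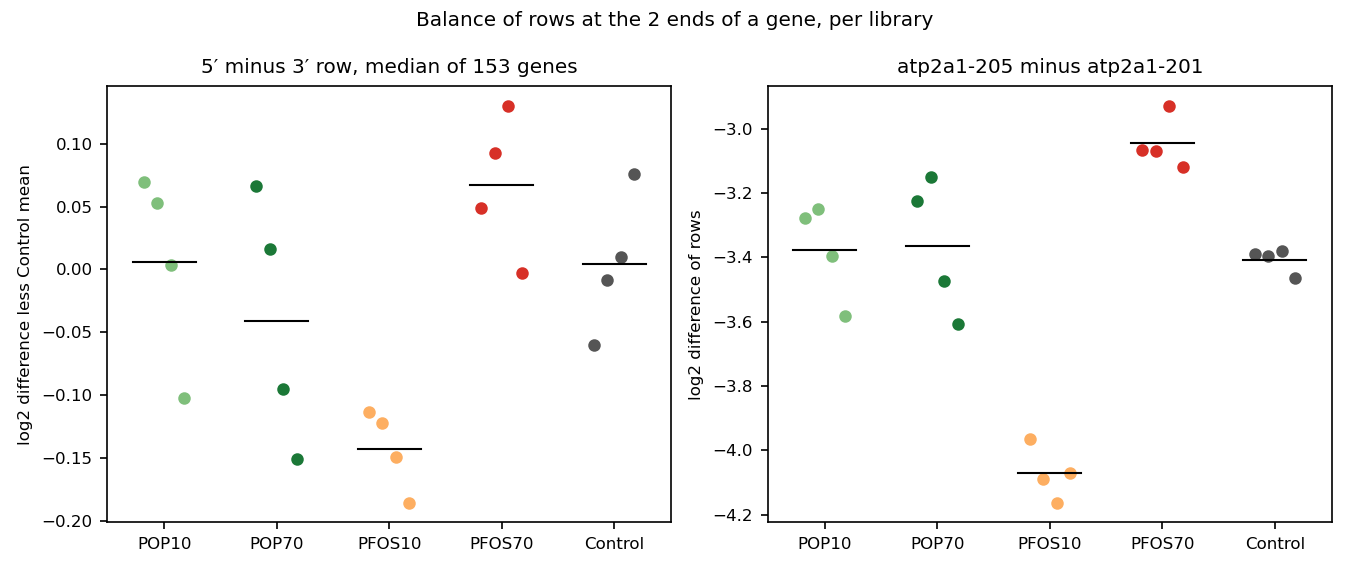
Balance of rows at the ends of a gene in each library (points, with group means as lines), as the median 5′ less 3′ log2 difference of 153 genes relative to the Control mean (left) and as atp2a1-205 less atp2a1-201 (right). PFOS10 is lowest in both panels, at -0.19 to -0.11 on the left and -4.16 to -3.97 on the right.

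Slow muscle and heart markers moved with the reticulum pumps between the PFOS levels. The summed level of 15 of 15 fast muscle genes was 118700 to 128600 RPM in POP10, 124100 to 136700 in POP70, 102000 to 148600 in PFOS10 and 113600 to 138500 in PFOS70, against 119200 to 134400 in Control. These ranges all overlapped. For 10 of 11 slow muscle genes the sum was 2037 to 2377 RPM in POP10, 2091 to 2556 in POP70, 1223 to 2036 in PFOS10 and 2219 to 2669 in PFOS70, against 1854 to 2037 in Control. For 10 of 12 heart genes it was 569.7 to 777 RPM in POP10, 627.6 to 856.7 in POP70, 403 to 612.2 in PFOS10 and 689.2 to 754.2 in PFOS70, against 491.7 to 670.7 in Control. The heart genes vmhc and vmhcl and the slow muscle gene smyhc3 had no row. Most of the heart sum came from actc1a and myh7, at means of 8.73 and 6.96 log2 RPM in Control, where nppa, myh6 and tnnc1a were at 0.22, 0.10 and -0.51. The gene tnni1b is in both the slow muscle and the heart list. PFOS70 was wholly above PFOS10 for both lists, with 7 of 9 tested slow muscle genes and 8 of 9 tested heart genes past the threshold as higher in PFOS70, against 23.6% of all genes. In POP10 against Control, where atp2a1 and atp2a1l were at -0.31 and -0.34, all 9 tested genes of each list had positive differences instead. None of these genes passed, where 0% of all genes did. Their part in the pump results was not tested.

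Neuronal markers moved with the plasma membrane pumps. The summed level of 12 of 12 neuronal genes was 5497 to 6272 RPM in POP10, 4784 to 6430 in POP70, 6525 to 8988 in PFOS10 and 5672 to 6767 in PFOS70, against 6414 to 7591 in Control. POP10 lay wholly below both PFOS10 and Control. In POP10 against PFOS10, 10 of the 12 were lower past the threshold and 1 was higher (11.6% and 19.8% of all genes), and in both mixtures against Control all 12 differences were negative with none past the threshold. In PFOS70 against PFOS10, 8 of the 12 were lower past the threshold and 1 was higher (10.8% and 23.6% of all genes). Of the 6 plasma membrane loci, atp2b1b alone passed as lower there. For 12 of 13 hair cell genes the sum was 179.2 to 223.2 RPM in PFOS10 and 322.8 to 355.1 in PFOS70, against 231 to 304.4 in Control, and for 9 of 9 ionocyte genes it was 531 to 691.9 in PFOS10 and 713.2 to 882.5 in PFOS70, against 678.4 to 834.8 in Control. Like the slow muscle and heart genes, 6 of 12 hair cell genes and 7 of 9 ionocyte genes passed as higher in PFOS70 than in PFOS10, against 23.6% of all genes. For 12 of 13 photoreceptor genes the sum was 22460 to 29080 RPM in PFOS10 and 16720 to 21130 in PFOS70, against 19340 to 23190 in Control. Their part in the pump results was not tested.

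Correlations over the 20 libraries are a description, since the libraries share groups. Pearson's r was 0.87 to 0.96 between each pair of atp2b2-202, atp2b2-208, atp2b3a and atp2b3b, and 0.83 to 0.94 after the group means were removed. The reticulum loci were less alike. Their r was 0.84 between atp2a1 and atp2a1l, 0.77 between atp2a1l and atp2a2a-204 and 0.50 between atp2a1 and atp2a2a-204, and with group means removed it was 0.56, 0.43 and -0.27. For atp2a2a-203 the highest r with any pump was 0.47. Opposite to atp2a1l ran atp2b1b, at -0.71, and -0.57 with group means removed. The genes most like atp2a1 among 7159 were atp1a2a, a sodium pump subunit (r = 0.93), myom2a, a sarcomere protein (0.91), ryr1b, the calcium release channel of the reticulum in muscle (0.91), jph1b, which holds the reticulum against the surface membrane (0.90), and cacna1sb, the voltage sensor of muscle (0.89). Those most like atp2b2-202 were kif1b, an axonal transport motor (r = 0.94), grin2da, a glutamate receptor subunit (0.94), rusc1 (0.94), ttbk2b, a kinase (0.94), and syn1, a synaptic vesicle protein (0.93). After the group means were removed, these 10 genes kept r of 0.75 to 0.94 with their pump.

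Of 29 listed reticulum proteins and pump regulators 14 were tested, and none of these was a listed small regulator of the pump, such as pln, sln or mrln. Among the 14 reticulum proteins tested, 1 passed in PFOS10 against Control, where 8.25% of all genes did. It was jph1a, which links the reticulum to the surface membrane, at -0.44 ± 0.12 (limma adjusted p = 0.0328). This call was lost with equal medians, quantile normalization or 16 RPM added, and without any 1 of Control replicates 1, 3 and 4 or PFOS10 replicates 1, 2 and 3 (limma adjusted p = 0.0527 to 0.0976). Their median difference was -0.20 in PFOS10, beside -0.03 over all genes, and 0.15 in PFOS70 with all 14 positive and 0 past the threshold, beside 0.02 over all genes. In PFOS70 against PFOS10, 9 of the 14 were higher and none lower, against 23.6% and 10.8% of all genes, and at equal medians 5 were higher. Among them were jph1a at 0.74 ± 0.12, trdn, which anchors calcium binding protein at the release channel, at 0.75 ± 0.14, and casq2, a store protein of the reticulum, at 0.61 ± 0.12 (limma adjusted p = 0.000205, 0.000529 and 0.000550). In POP10 against PFOS10 casq1b, casq2, trdn and calr3a were higher and none lower, against 19.8% and 11.6% of all genes, with casq2 at 0.55 ± 0.12 (limma adjusted p = 0.00223). The calls of casq1b, trdn and calr3a there were lost at equal medians, trdn and calr3a also without any 1 of POP10 replicates 1, 2 and 3 or PFOS10 replicate 3, and trdn without PFOS10 replicate 1 or 2 (limma adjusted p = 0.0558 to 0.123).

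Of 9 tested genes for the Golgi pump, for partners of the plasma membrane pump and for calmodulin, none passed in any comparison with Control, though 3 were higher in PFOS10 at equal medians. Of all genes, 8.25% passed against Control in PFOS10 and at most 0.0156% in the other groups. In POP10 against PFOS10, 3 were lower, against 11.6% of all genes. These were nptna and nptnb, which encode neuroplastin, a partner subunit of the plasma membrane pump in mammals, at -0.30 ± 0.08 and -0.47 ± 0.10, and the calmodulin gene calm1a at -0.19 ± 0.07 (limma adjusted p = 0.00692, 0.00206 and 0.0336). The call of calm1a was lost without any 1 of POP10 replicates 1, 2 and 3 or PFOS10 replicates 2 and 3 (limma adjusted p of up to 0.115). In PFOS70 against PFOS10, 5 were lower (10.8% of all genes) and 1 was higher (23.6% of all genes), and at equal medians 8 were lower. The higher one was atp2c1, of the Golgi pump, at 0.27 ± 0.10 (limma adjusted p = 0.0340). That of atp2c1 was lost at equal medians, with quantile normalization, and without any 1 of PFOS10 replicates 2, 3 and 4 or PFOS70 replicates 1, 2 and 3 (limma adjusted p = 0.0570 to 0.233). The lower ones included nptnb at -0.44 ± 0.10 (limma adjusted p = 0.00192) and calm1b at -0.27 ± 0.07 (limma adjusted p = 0.00517).

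None of 14 sodium calcium exchangers passed against Control in any exposed group, where 8.25% of all genes did in PFOS10 and at most 0.0156% in the other groups. In PFOS70, 2 exchangers were higher than in PFOS10, against 23.6% of all genes, with 1 higher and 4 lower at equal medians. They were slc8b1 of the mitochondrion at 0.97 ± 0.31 and slc24a5 of pigment cells at 0.59 ± 0.20 (limma adjusted p = 0.0220 and 0.0250). Both had low levels, with means in PFOS10 and PFOS70 of 1.032 and 1.998 log2 RPM for slc8b1 and 2.016 and 2.603 for slc24a5. Both calls were lost with quantile normalization and without PFOS10 replicate 3 or PFOS70 replicate 2, slc8b1 also without PFOS10 replicate 4, and slc24a5 also at equal medians and without PFOS70 replicate 1 (limma adjusted p = 0.0545 to 0.348). Of 8 tested genes for store-operated entry, by which an emptied reticulum opens calcium channels of the surface, stim2a was lower in PFOS10 than in Control at -0.37 ± 0.11 (limma adjusted p = 0.0427), beside 8.25% of all genes past the threshold. This call was lost at equal medians, with voom and without any 1 of Control replicates 2, 3 and 4, PFOS10 replicates 1, 2 and 3 or PFOS70 replicate 3 (limma adjusted p of up to 0.177). In PFOS70 against PFOS10, 4 of these 8 were higher and none lower, against 23.6% and 10.8% of all genes, but 2 were higher at equal medians and none with quantile normalization. One was stim1b, a sensor of the calcium store, at 1.11 ± 0.28 (limma adjusted p = 0.00462, and 0.0676 with quantile normalization). Its level was low, with means of 0.93 log2 RPM in PFOS10 and 2.035 in PFOS70. Of 8 tested genes for mitochondrial calcium uptake none passed against Control, where 8.25% of all genes did in PFOS10 and at most 0.0156% in the other groups. Between the PFOS levels 2 were higher in PFOS70 and 2 lower (23.6% and 10.8% of all genes), with mcu, the pore of the uptake channel, at 0.87 ± 0.22 (limma adjusted p = 0.00500).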

How the data were processed

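RNA sequencing values of 20 libraries were taken from 1 table of 48838 transcripts. The deposited values are log2 RPM. The submitters' processing notes list DESeq2, R 3.5.0, STAR 2.5.4b, Trim Galore 0.4.5 and the build GRCz11, without role or order. How the log2 values were computed is not given in the sources. In the table itself, 1 read was worth the same in every transcript of a library, 0 reads were written as 0.9 reads, and 100% of values came out as whole reads within 0.05, which gave totals of 8572287 to 11243573 reads. All value columns matched a sample.

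Each of 22851 symbols was read from its row of highest mean, and a symbol was tested where 4 or more libraries reached 0 log2 RPM, which kept 19289. For the 9 comparisons limma 3.58.1 (R 4.3.3) was used, in 1 model over 20 libraries that held a mean for each group, with a mean-variance trend, 15 residual degrees of freedom and Benjamini-Hochberg adjustment at 0.05. Fold changes of genes near 0 reads are understated. The procedure was tested on simulated data. Fits with the second loci as rows (19291) and with all transcript rows (41336) were separate. The members, lists and markers were chosen with earlier results of these data known.

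A difference with its SE and p is given for a pump that passed, whose groups did not overlap or whose unadjusted p was below 0.05. From each list up to 3 members past the threshold are named in a comparison, with any others named to complete a count. Likeness used genes with a mean of at least 5 log2 RPM. The alternatives changed the filter (none, or a mean of at least 5.5 log2 RPM), the scaling (quantiles, equal medians, or 16 RPM added before the log), the model (array weights, a flat variance, a block for the replicate number, voom on recovered reads), the libraries (those of the groups compared, none of PFOS10, each left out in turn) or the row (lowest-numbered transcript, all transcript rows). The second loci, the balance of gene ends and the alternatives for genes of the lists were added after the data were seen.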

Additional observations from a re-analysis of the deposited data

Results flagged for a closer look

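In POP10, the atp2a1 level of replicate 2, 12.8854 log2 RPM, lay apart from the other 3 libraries, which were within 12.75 to 12.77. In PFOS70, the atp2b1b level of replicate 4, 6.7557 log2 RPM, lay below the other 3, which were within 7.03 to 7.07. These were the 2 outlying libraries by Dixon's criterion (0.829 for 4 samples) among 50 groups of 4 looked at, and chance flags about 1 in 20 groups.

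The step between the levels differed between the mixture and PFOS for a pair of reticulum pumps, by a test of the difference itself in limma. The POP70 minus POP10 difference less the PFOS70 minus PFOS10 difference was -0.6505 for atp2a1l (adjusted p = 0.0406) and -1.2793 for atp2a2a-204 (adjusted p = 0.00273). The libraries without which the first of these lost its call are named above. That call is for the row read, atp2a1l-201. The means of atp2a1l-202, of the later part of the gene alone, rose from 8.67 to 8.86 log2 RPM for the mixture and from 8.83 to 9.04 for PFOS.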

How the results depend on the processing

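Of 33 named differences under 1062 alternative fits, none changed sign, 1006 fits gave the same call, 36 lost it and 20 gained one. The same call includes a repeat of a difference short of the threshold, which has no call to lose. The call of atp2a1l was lost in 14 fits for the difference between the dose effects and in 9 for PFOS10 against Control. No pump passed in POP10, POP70 or PFOS70 against Control, in POP70 against PFOS70 or in POP70 against POP10 under any alternative run. For PFOS10 against Control the count of pumps past the threshold, 1 as reported, was 0 with no filter, with quantile normalization and with no variance trend. It was 2 with a mean of at least 5.5 log2 RPM, array weights, voom, the second loci and all transcript rows, and 0 to 3 with a library left out. For POP10 against PFOS10 the count, 3 as reported, was 5 with the second loci and 1 with the lowest-numbered transcript, where atp2b2 was at -0.10 (limma adjusted p = 0.625), and 1 to 4 with a library left out. For PFOS70 against PFOS10 the count, 3 as reported, was 5 at equal medians and 3 to 4 with a library left out. For the difference between the dose effects the count, 1 as reported, was 0 with no filter, quantile normalization, no variance trend and only the groups compared, 2 with the second loci, and 0 to 2 with a library left out. For 47 differences of genes around the pumps, 1226 of 1435 alternative fits gave the same call, 209 lost it and none changed sign. The causes were not tested.

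Over all genes, PFOS10 against Control gave 1591 calls as reported, but 448 with a mean of at least 5.5 log2 RPM, 765 with 16 RPM added, 786 with quantile normalization, 933 with only the groups compared, 1124 with voom on recovered reads, 3661 with array weights and 367 to 2516 with a library left out. A mean of at least 5.5 log2 RPM gave 2668 in place of 6051 for POP10 against PFOS10, 2357 in place of 6634 for PFOS70 against PFOS10 and 885 in place of 3060 for the difference between the dose effects, which array weights raised to 5066. A library left out gave 1770 to 4143 for the last of these. For POP70 against PFOS70, 35 as reported, the lowest was 4 with a library left out, and voom gave 18. The alternatives gave at most 9 genes for POP70 against Control, 4 for POP10 against Control, 16 for PFOS70 against Control and 0 for POP70 against POP10.

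With the replicate number as a block, the count for PFOS10 against Control was 2, as atp2a1 passed at an adjusted p of 0.0495 in limma, and the counts of the other comparisons did not change. Deviations from the group means gave r of -0.222 to 0.251 over 40 same-numbered pairs, 12 of them above 0.1. Pairs of unlike number were not measured beside them, so these values cannot settle whether the numbers pair the libraries. The main model did not use the numbers. Every pump row read held at least 264 reads per library, so depth limited these counts little, and 4 libraries a group limited their precision.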
